A study of Mus musculus with 6 samples.

Results

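Zinc is bound, moved and sensed by a small set of proteins, and 10 mouse genes of this set were followed in RAW264.7 cells treated with SKI-II. They were chosen by gene symbol from a count table of 49315 Ensembl identifiers. They are the metallothionein genes Mt1 and Mt2, the gene of the zinc-sensing transcription factor MTF-1 (Mtf1), 3 genes of the SLC30 family (Slc30a1, Slc30a5, Slc30a7) and 4 genes of the SLC39 family (Slc39a1, Slc39a6, Slc39a10, Slc39a14). All 10 were among the 12274 genes with enough counts to be tested.

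RAW264.7 is a mouse macrophage-like cell line, here of wild-type genotype, and the labels name no infection. SKI-II is a small molecule best known for inhibiting sphingosine kinase. In the study, 3 libraries came from cells given 4 μg/mL SKI-II for 24 h and 3 from cells given the same amount of its vehicle, DMSO, and the comparison asks how the compound changes the macrophage transcriptome. The labels number the libraries 1 to 3 in each group but do not say whether they came from separate cultures, so the p-values measure the spread between these libraries, which may be technical.

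Metallothioneins are short, cysteine-rich proteins that bind zinc and copper and buffer them in the cytosol. ZnT proteins, encoded by the SLC30 genes, carry zinc out of the cytosol, across the plasma membrane or into organelles, and ZIP proteins, encoded by the SLC39 genes, carry it in. MTF-1 binds metal response elements when free zinc rises and activates the metallothionein genes and Slc30a1, while it represses Slc39a10. Macrophages use these proteins to hold zinc back from microbes or to load it into the vesicles that contain them, and cytokines are known to raise several of them.

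The total per library ran from 12495957 to 20050677 counts. All 10 macrophage markers were detected, and together they held 9013 to 12157 CPM (counts scaled to library size) in DMSO and 5731 to 8083 in SKI-II. Without Lyz2 the sum did not fall, as the other 9 markers together held 3278 to 3678 CPM in DMSO and 3841 to 4247 in SKI-II. Of the 10, Cd14 and Fcgr1 were higher with SKI-II, Adgre1, Lyz2 and Itgam were lower, and the other 5 were not called. The part of these marker differences in the zinc genes was not tested. The summed markers of fibroblasts, of T and NK cells, of B cells and of endothelial cells lay at or below 1.30 CPM in every library, and the 4 epithelial markers had no counts.

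Of the 10 genes, 6 were higher with SKI-II, 2 were lower and 2 were not called, with the threshold of edgeR's quasi-likelihood test set at an adjusted p of 0.05. Among all tested genes, 18.4% were called higher and 19.7% lower. Mt1, Mt2 and Slc39a14 rose and Slc39a10 fell past a log2 fold change of 1 or -1, and of all tested genes 8.28% were called higher and past 1 and 7.44% were called lower and past -1. The median log2 fold change of the 10 was 0.59, against 0.0038 over all tested genes. For 7 of the 10 the lowest SKI-II library exceeded the highest DMSO library, which held for 24.8% of tested genes, and for 2 the order was the opposite, as it was for 25.5%. A bulk measurement cannot tell less RNA per cell from fewer cells that carry it.

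**Figure D1:**
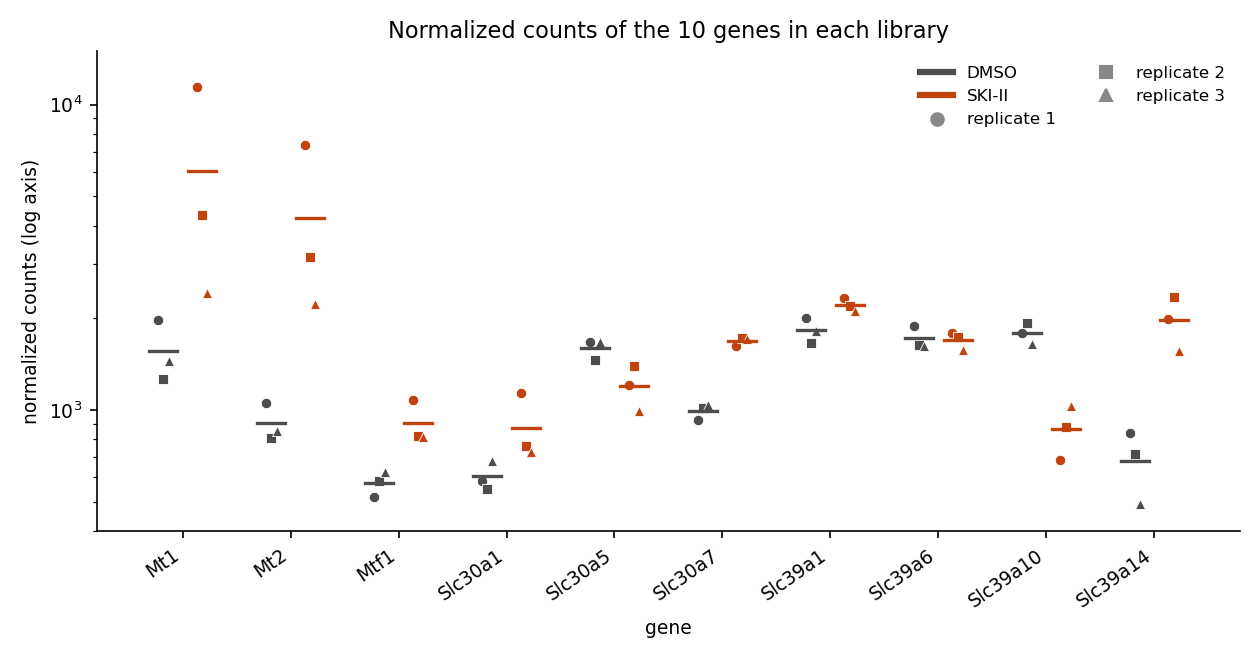
Normalized counts (log axis) of the 10 genes in each of the 6 libraries, with DMSO in grey, SKI-II in orange, a symbol for each replicate number and a bar at the group mean. The SKI-II libraries of Mt1 and Mt2 lie farthest from each other, with replicate 1 far above the others, and the groups overlap for Slc39a6.

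Mt1 (ENSMUSG00000031765, chromosome 8, 94179082 to 94180327, plus strand) and Mt2 (ENSMUSG00000031762, chromosome 8, 94172664 to 94173568, plus strand) are neighbours in GENCODE M21 on GRCm38. The promoter sequences of both, and of Slc30a1, are given here from RefSeq (GRCm38.p6) since metal response elements, the binding sites of MTF-1, are known from these genes. Each is printed 5′ to 3′ on the gene's own strand, with the cores of the metal response element in capitals. The cores searched, on both strands, were TGCACNC and TGCGCNC. The upstream pieces are chr8:94178839-94179088 for Mt1, chr8:94172368-94172617 for Mt2 and chr1:191906531-191906780 for Slc30a1, and the short pieces are the 30 bases that follow the RefSeq start.
Mt1 upstream: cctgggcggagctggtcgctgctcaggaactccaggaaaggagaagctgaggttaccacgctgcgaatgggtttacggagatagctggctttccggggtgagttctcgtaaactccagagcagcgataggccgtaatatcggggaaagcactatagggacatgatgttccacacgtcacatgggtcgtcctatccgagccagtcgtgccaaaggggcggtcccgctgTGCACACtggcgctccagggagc
Mt1 from the start: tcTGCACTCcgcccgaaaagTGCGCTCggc
Mt2 upstream: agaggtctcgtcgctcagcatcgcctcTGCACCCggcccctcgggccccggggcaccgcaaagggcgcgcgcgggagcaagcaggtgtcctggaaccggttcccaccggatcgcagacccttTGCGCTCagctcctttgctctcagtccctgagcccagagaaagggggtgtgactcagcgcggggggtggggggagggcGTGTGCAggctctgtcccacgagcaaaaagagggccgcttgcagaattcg
Mt2 from the start: ggtcGTGCGCAggcccaggggcgtgtgctg
Slc30a1 upstream: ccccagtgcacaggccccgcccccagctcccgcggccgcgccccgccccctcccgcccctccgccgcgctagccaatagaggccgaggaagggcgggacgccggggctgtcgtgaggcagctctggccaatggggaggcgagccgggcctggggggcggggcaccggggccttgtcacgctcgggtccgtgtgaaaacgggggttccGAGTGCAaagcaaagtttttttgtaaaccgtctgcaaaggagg

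RefSeq windows of 300 bases, 250 before and 50 after the start, were found for 8 of the 10 genes. Slc39a6 and Slc39a14 had no entry. The Mt2 window held 4 metal response element cores, Mt1 held 3, Slc30a1 held 2, of which 1 begins at base 31 after the start and is not printed, and Slc30a5 held 1. The windows of Mtf1, Slc30a7, Slc39a1 and Slc39a10 held none. Of the 2 Slc39a10 windows, 1 lies upstream of the GENCODE gene model and 1 within it. Neither covers the 5′ end of that model. At least 4 cores stood in 0.517% of the 32851 windows of all genes, at least 3 in 1.97%, at least 2 in 7.11% and at least 1 in 25.7%. The Mt2 cores began at -223, -128, -50 and 5 bases from the start, and the Mt1 cores at -23, 3 and 21. The GENCODE gene model of Mt2 begins downstream of this RefSeq start, so the window may not be that of the transcript counted here. Mt1 has 3 annotated transcripts in GENCODE. Which start the cells use was not tested for any gene, so all positions refer to the RefSeq start alone. The core of the antioxidant response element, TGACNNNGC, the binding site of Nrf2, was found in the windows of Mt2, Slc30a1, Slc30a5 and Slc39a1, with 1 match in each, and in 12.4% of all windows. No match overlapped another. A match describes the letters of a window and not a bound site.

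**Figure D2:**
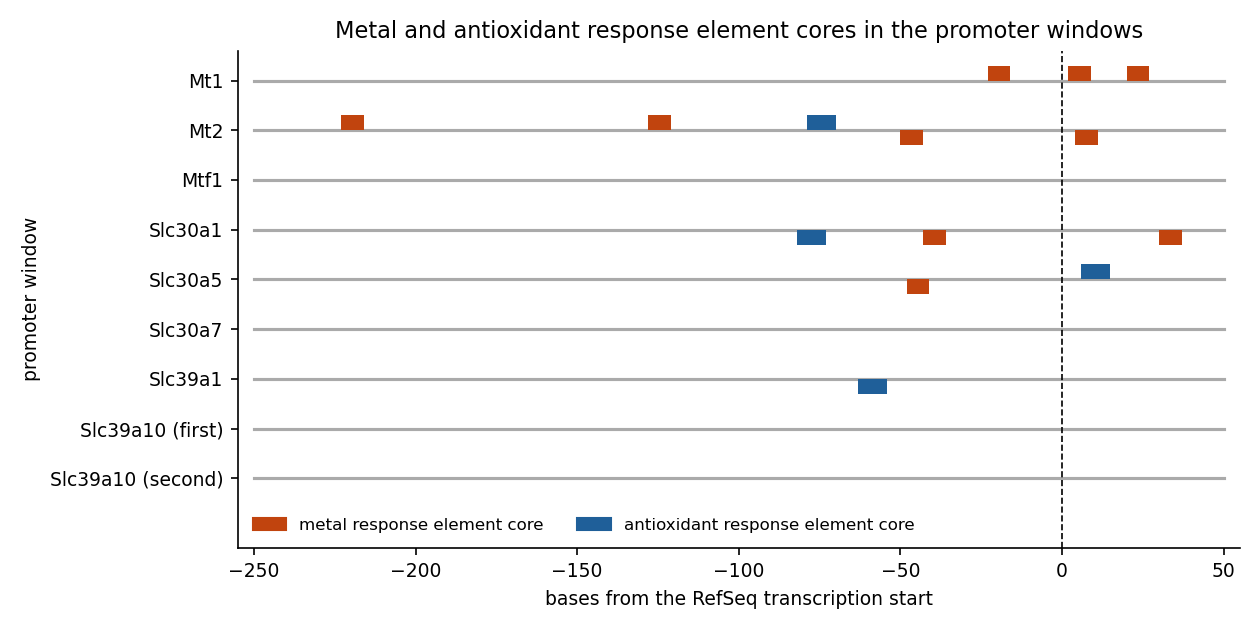
Cores of the metal response element (orange) and of the antioxidant response element (blue) in the 9 RefSeq windows of 8 genes (Slc39a10 has 2), by distance in bases from the transcription start. Boxes above a line match the gene's own strand and boxes below it the other strand, and the windows of Mt1 and Mt2 hold the most metal response element cores, with 3 and 4.

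Mt1 had 1964, 1264 and 1442 normalized counts in DMSO replicates 1 to 3 and 11409, 4338 and 2411 in SKI-II replicates 1 to 3. Every SKI-II library was above every DMSO library, and SKI-II replicate 1 stood far above the other SKI-II libraries. The group means were 1556 ± 364 and 6052 ± 4738 (SD, n = 3), which is 3.88-fold higher on a log2 fold change of 1.96 ± 0.45 (standard error), with an adjusted p of 0.0084 by the quasi-likelihood test of edgeR.

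Mt2 had 1054, 806 and 853 normalized counts in the DMSO libraries, against 7341, 3165 and 2228 in SKI-II. The libraries stood in the same order as for Mt1 in both groups. The means were 904 ± 132 and 4245 ± 2722 (SD, n = 3), which is 4.69-fold higher on a log2 fold change of 2.23 ± 0.36 (standard error), with an adjusted p of 0.00137 by edgeR.

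SKI-II replicate 1 set much of the size of both changes. Without it the log2 fold change was 1.11 for Mt1 and 1.57 for Mt2, and both stayed below an adjusted p of 0.05 (0.0175 and 0.000892, edgeR). The adjusted p of Mt1 reached 0.0378 and that of Mt2 0.00864 when DMSO replicate 2 was left out, the highest over all 13 alternatives. The coefficient of variation among the SKI-II libraries was 78.3% for Mt1 and 64.1% for Mt2, larger than that of 99.9% and 99.8% of the 9587 genes that averaged 100 or more normalized counts. In the same libraries it was 3.31% for Slc30a7 and 4.76% for Slc39a1.

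The ratio of Mt2 to Mt1 within a library removes the scaling between libraries. There were 0.537, 0.638 and 0.591 Mt2 counts for each Mt1 count in DMSO and 0.643, 0.730 and 0.924 in SKI-II. The SKI-II ratios lay above the DMSO ratios, with an exact permutation p of 0.1 (two-sided), the smallest that 3 libraries against 3 allow. Mt1 and Mt2 together made up 0.0131% to 0.0197% of all counts in DMSO and 0.0284% to 0.118% in SKI-II. The annotated Mt1 and Mt2 transcripts share no run of more than 20 bases. An antisense gene, Gm45774, overlaps Mt2, and its own counts rose too (log2 fold change 1.54, adjusted p = 0.0121 in the same test). The library kit named in the labels is not one that marks strand, so reads of Mt2 and of Gm45774 cannot be told apart where they overlap.

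The other metallothionein genes, Mt3, known from brain, and Mt4, known from stratified epithelia, had no counts in any library. A count of 0 in a library allows up to 3 counts.

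Mtf1 (ENSMUSG00000028890, chromosome 4, 124802104 to 124849800) had 519.6, 582 and 627 normalized counts in the DMSO libraries, against 1078, 823 and 811 in SKI-II. The groups did not overlap, and SKI-II replicate 1 was again the highest. The log2 fold change was 0.65 (standard error 0.15, adjusted p = 0.00778, edgeR), from 576 ± 53.8 to 904 ± 150 (SD, n = 3). The call held under all 13 alternatives, with a log2 fold change between 0.50 and 0.72. The antisense gene 1110065P20Rik, which overlaps Mtf1, was not called (log2 fold change 0.08, standard error 0.18).

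Among the genes of zinc export, Slc30a1 encodes ZnT1, the exporter of the plasma membrane. Slc30a1 (ENSMUSG00000037434, chromosome 1, 191906767 to 191913247) had 585, 549.6 and 679 normalized counts in the DMSO libraries, against 1131, 759.5 and 726 in SKI-II. The highest DMSO library and the lowest SKI-II library were close together, and SKI-II replicate 1 lay well above both others. From 605 ± 67.1 to 872 ± 225 (SD, n = 3), the log2 fold change was 0.53 (standard error 0.18, adjusted p = 0.0460, edgeR). This call was lost without DMSO replicate 1 (adjusted p = 0.0918), DMSO replicate 2 (0.163), SKI-II replicate 1 (0.157, with a log2 fold change of 0.29) or SKI-II replicate 2 (0.0545), and with limma-voom (0.0606), and over the 13 alternatives the adjusted p ran from 0.0102 to 0.163.

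Slc30a5 and Slc30a7 encode ZnT5 and ZnT7, which bring zinc into the Golgi and the early secretory pathway, where it is built into secreted and membrane enzymes. Slc30a7 (ENSMUSG00000054414, chromosome 3, 115938973 to 116007406) had 929, 1016 and 1038 normalized counts in the DMSO libraries, against 1620.2, 1721 and 1712 in SKI-II. Both groups were tight and far apart. The log2 fold change was 0.76 (standard error 0.11, adjusted p = 0.000714, edgeR), the smallest standard error of the 10 genes. It moved between 0.70 and 0.79 over the 13 alternatives.

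Slc30a5 (ENSMUSG00000021629, chromosome 13, 100802648 to 100833427) had 1667, 1459 and 1670.5 normalized counts in the DMSO libraries, against 1207, 1394 and 989.9 in SKI-II. Every SKI-II library was below every DMSO library, with SKI-II replicate 2 close to DMSO replicate 2. The log2 fold change was -0.42 (standard error 0.15, adjusted p = 0.0454, edgeR), from 1599 ± 121 to 1197 ± 202 (SD, n = 3). This call was lost without DMSO replicate 1, 2 or 3, SKI-II replicate 1 or SKI-II replicate 3, with library size alone as the scaling and with genes kept only at 10 or more counts in all libraries, and the adjusted p ran from 0.0324 to 0.131 over the alternatives. The 2 Golgi transporters moved in opposite directions. There were 0.557, 0.696 and 0.621 Slc30a7 counts for each Slc30a5 count in DMSO and 1.34, 1.23 and 1.73 in SKI-II. Neither gene overlapped between the groups, so these ratios had to separate. Their exact permutation p of 0.1 (two-sided, the smallest possible) adds nothing to that.

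Of the 10 SLC30 genes, 6 were tested, of which 4 were higher, 1 was lower and 1 was not called, beside 18.4% higher and 19.7% lower among all tested genes. Their median log2 fold change was 0.62. Beside the members, Slc30a6, whose protein ZnT6 works as a partner of ZnT5, rose from 219 ± 24.2 to 359.8 ± 35.8 normalized counts (log2 fold change 0.72, adjusted p = 0.00693, edgeR). Slc30a9, which encodes a protein of mitochondrial zinc export, rose from 863 ± 85.0 to 1473 ± 360.3 (log2 fold change 0.77, adjusted p = 0.00845, edgeR). Slc30a4, named after its values were seen, was above DMSO in every SKI-II library but not called (log2 fold change 0.36, adjusted p = 0.0522, edgeR). Slc30a2, Slc30a8 and Slc30a10 had no counts, and Slc30a3 had at most 3.26 normalized counts in a library.

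Among the genes of zinc import, Slc39a14 encodes ZIP14, a transporter of zinc, iron and manganese that inflammatory cytokines are known to raise. Slc39a14 (ENSMUSG00000022094, chromosome 14, 70303469 to 70351425) had 837, 718 and 490.1 normalized counts in the DMSO libraries, against 1986, 2345 and 1555 in SKI-II. The lowest SKI-II library was well above the highest DMSO library. The means were 682 ± 176 and 1962 ± 396 (SD, n = 3), a 2.88-fold rise (log2 fold change 1.53, standard error 0.21, adjusted p = 0.000487, edgeR). Its log2 fold change stayed between 1.33 and 1.69 over the 13 alternatives.

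Slc39a10 encodes ZIP10, an importer of the plasma membrane. Slc39a10 (ENSMUSG00000025986, chromosome 1, 46807544 to 46892852) had 1784, 1926 and 1647 normalized counts in the DMSO libraries, against 686, 878 and 1029.8 in SKI-II. SKI-II replicate 1, the highest library for Mt1 and Mt2, was the lowest here. The means were 1786 ± 139 and 864.5 ± 172 (SD, n = 3), a 2.06-fold decrease (log2 fold change -1.04, standard error 0.16, adjusted p = 0.000783, edgeR). The log2 fold change was -0.91 without SKI-II replicate 1 and -0.995 without DMSO replicate 2, short of the threshold of -1, and the adjusted p was below 0.05 under all 13 alternatives. There were 0.469, 0.373 and 0.298 Slc39a14 counts for each Slc39a10 count in DMSO and 2.90, 2.67 and 1.51 in SKI-II. These ratios too had to separate, since the 2 genes moved in opposite directions and neither overlapped between the groups. Their exact permutation p was 0.1 (two-sided, the smallest possible) and adds nothing to that.

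Slc39a6 encodes ZIP6, the closest relative of ZIP10, with which it can form a complex. Slc39a6 (ENSMUSG00000024270, chromosome 18, 24579881 to 24603817) had 1881, 1632 and 1622 normalized counts in the DMSO libraries, against 1787, 1732 and 1570.0 in SKI-II. The groups overlapped. The log2 fold change was -0.01 (standard error 0.12, 95% interval -0.28 to 0.25, adjusted p = 0.942, edgeR).

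Slc39a1 encodes ZIP1, a widely expressed importer of the plasma membrane. Slc39a1 (ENSMUSG00000052310, chromosome 3, 90248172 to 90253612) had 2005, 1649 and 1807 normalized counts in the DMSO libraries, against 2321, 2187 and 2113 in SKI-II. Every SKI-II library was above every DMSO library, but the difference did not pass the test (log2 fold change 0.28, standard error 0.12, 95% interval 0.01 to 0.54, adjusted p = 0.0902, edgeR). It was called under none of the 13 alternatives, with an adjusted p from 0.0506 to 0.345.

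**Figure D3:**
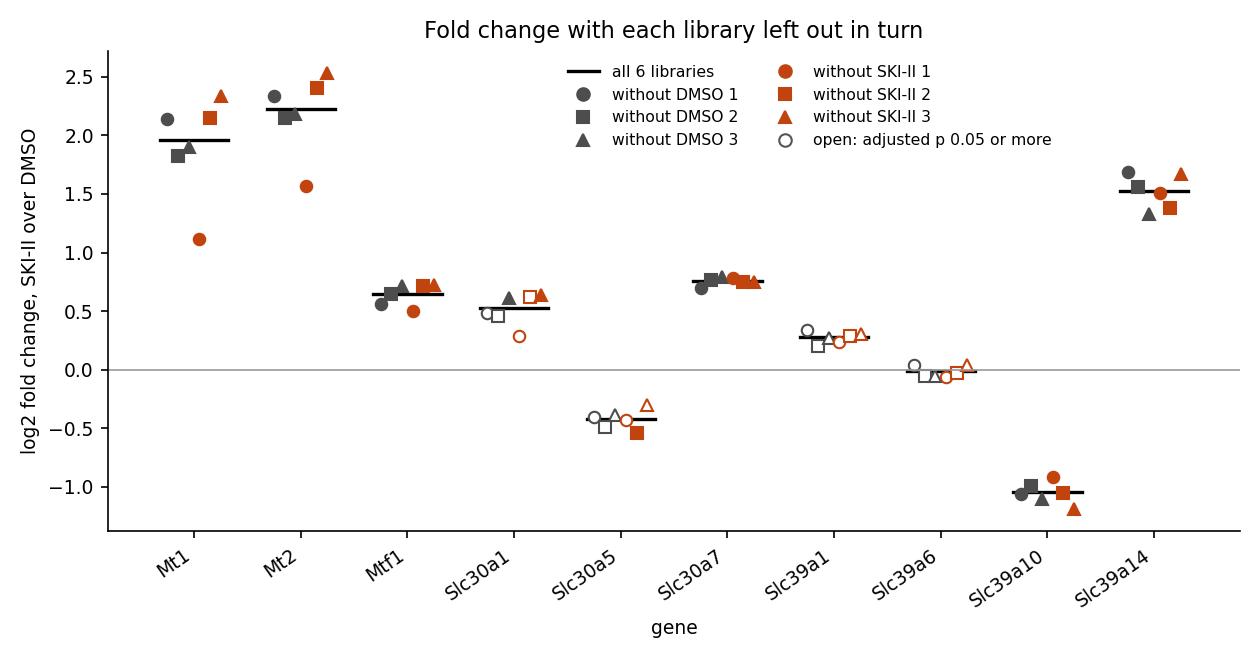
Log2 fold change of each of the 10 genes with all 6 libraries (black bar) and with each library left out in turn (symbols, open where the adjusted p of edgeR was 0.05 or more). Leaving out SKI-II replicate 1 brings Mt1 from 1.96 to 1.11 and Mt2 from 2.23 to 1.57, the symbols of Slc30a7 stay within 0.70 to 0.79, and most symbols of Slc30a1 and Slc30a5 are open.

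Of the 14 SLC39 genes, 12 were tested, of which 5 were higher, 2 were lower and 5 were not called, and the 2 lower are near the 19.7% of all tested genes that were lower (18.4% were higher). Their median log2 fold change was 0.36. Slc39a2, which encodes the importer ZIP2, had the largest rise of the family, from 76.7, 68.2 and 57.4 normalized counts in DMSO to 496, 244 and 186 in SKI-II (log2 fold change 2.19, standard error 0.35, adjusted p = 0.00112, edgeR). Its SKI-II libraries stood in the same order as for Mt1 and Mt2. Slc39a2 overlaps Mettl17, so reads in their shared stretch cannot be told apart.

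Slc39a7, which encodes ZIP7, the transporter that releases zinc from the endoplasmic reticulum, rose from 922 ± 115 to 1496 ± 146 normalized counts (log2 fold change 0.70, adjusted p = 0.00324, edgeR). Slc39a8 and Slc39a9 rose by log2 fold changes of 0.69 and 0.49 (adjusted p = 0.00594 and 0.0101, edgeR). Slc39a8 encodes ZIP8, a close relative of ZIP14. Slc39a13, whose protein ZIP13 moves zinc in the early secretory pathway, fell from 405 ± 44.4 to 273 ± 7.07 normalized counts (log2 fold change -0.57, adjusted p = 0.0136, edgeR). The calls of Slc39a9 (adjusted p = 0.0554 without DMSO replicate 2) and Slc39a13 (0.0538 without SKI-II replicate 2) were each lost under 1 alternative of 13, and the adjusted p went down to 0.00328 and 0.00636 under others. Slc39a7, Slc39a9 and Slc39a13 overlap other annotated genes.

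Slc39a3, Slc39a4 and Slc39a11, named after their values were seen, were not called, like Slc39a1 and Slc39a6. Slc39a5 and Slc39a12 had at most 7.77 and 4.95 normalized counts in a library and were not tested. Over the metallothionein, SLC30 and SLC39 lists together, 11 of 20 tested genes were higher and 3 were lower, of 28 listed, where 18.4% of all tested genes were higher and 19.7% lower. The 10 genes described here are part of these counts.

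**Figure D4:**
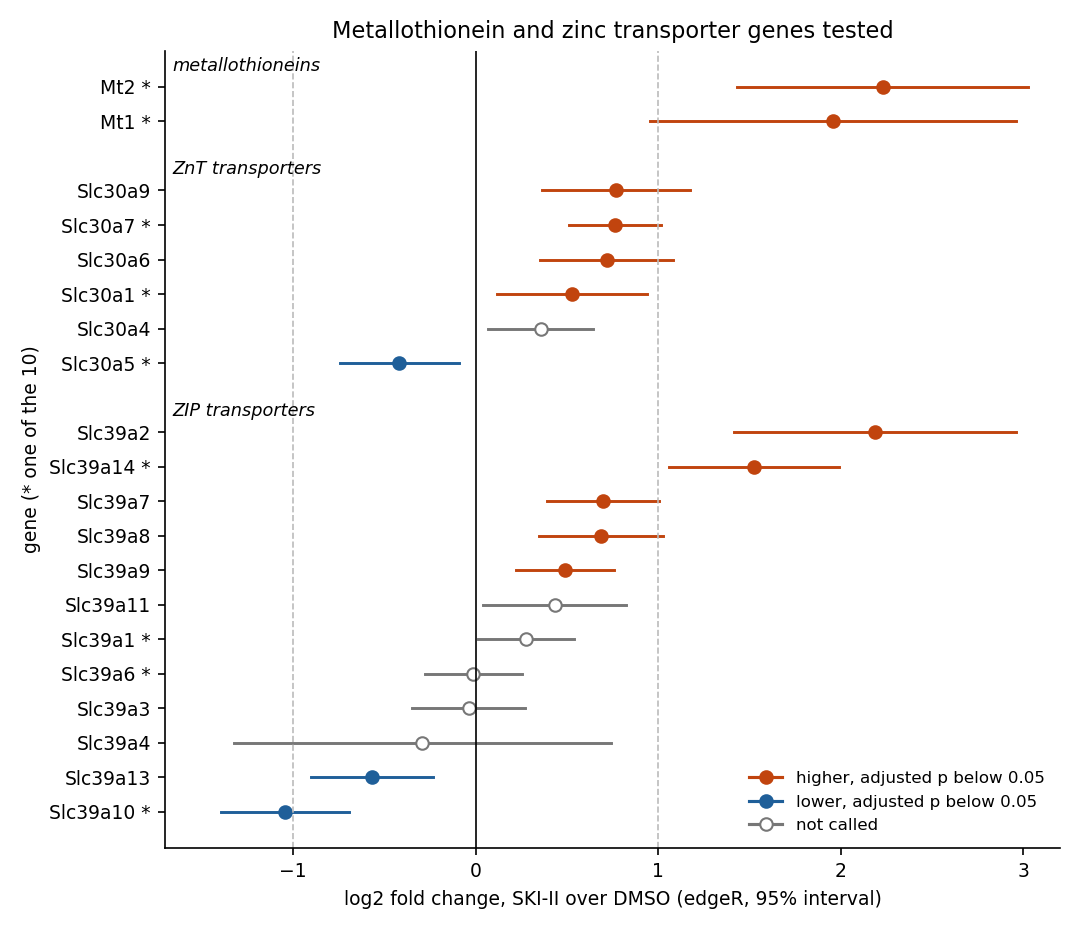
Log2 fold change of SKI-II over DMSO, with its 95% interval from edgeR, for the 20 tested metallothionein, ZnT and ZIP genes (an asterisk marks the members, filled points are called at an adjusted p below 0.05 and dashed lines mark 1 and -1). Mt2, Slc39a2, Mt1 and Slc39a14 lie above 1, and Slc39a10 alone lies below -1.

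Levels can be set beside each other only per length, and here as RPKM, reads per kilobase of annotated exon scaled to library size. In DMSO the order was Mt2 at 95.9 ± 14.0, Mt1 at 77.9 ± 18.2, Slc39a1 at 48.0 ± 4.70, Slc39a6 at 26.2 ± 2.25 and Slc39a10 at 18.3 ± 1.43. It went on with Slc30a5 at 13.7 ± 1.03, Slc30a1 at 7.19 ± 0.80, Slc30a7 at 5.57 ± 0.32, Mtf1 at 4.03 ± 0.38 and Slc39a14 at 4.03 ± 1.04 (SD, n = 3 for each). Neighbours in this order had ranges that did not overlap, except Mt2 with Mt1 and Mtf1 with Slc39a14.

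With SKI-II the per-length level was 450.0 ± 289 for Mt2 and 303 ± 237 for Mt1. Per exon length Mt2 was above Mt1 in all 3 libraries of each group, while by counts Mt1 was above Mt2 in every library. Slc39a1 at 58.2 ± 2.77 and Slc39a6 at 26.0 ± 1.73 followed and kept their places. Slc39a14 moved from the last place to the fifth, at 11.6 ± 2.34, and Slc39a10 from the fifth to the ninth, at 8.84 ± 1.76. From Slc39a14 down, each gene's range overlapped that of the next, through Slc30a1 at 10.4 ± 2.67, Slc30a5 at 10.2 ± 1.73, Slc30a7 at 9.45 ± 0.31, Slc39a10 and Mtf1 at 6.33 ± 1.05.

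The order depends on the length used. Slc30a7 has 11116 bases of annotated exon and 1134 of coding sequence, and over coding length it had rank 4 in both groups instead of rank 8. Mt2, Mt1 and Slc39a1 kept the first 3 places over either length. The order of Mt2 and Mt1 rests on annotated lengths that differ between them. Mt1 had 1246 exon bases, its whole gene span, and 479 coding bases, against 588 and 256 for Mt2. Their shortest annotated transcripts have 549 bases for Mt1 and 388 for Mt2, and the order over these was not computed.

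**Figure D5:**
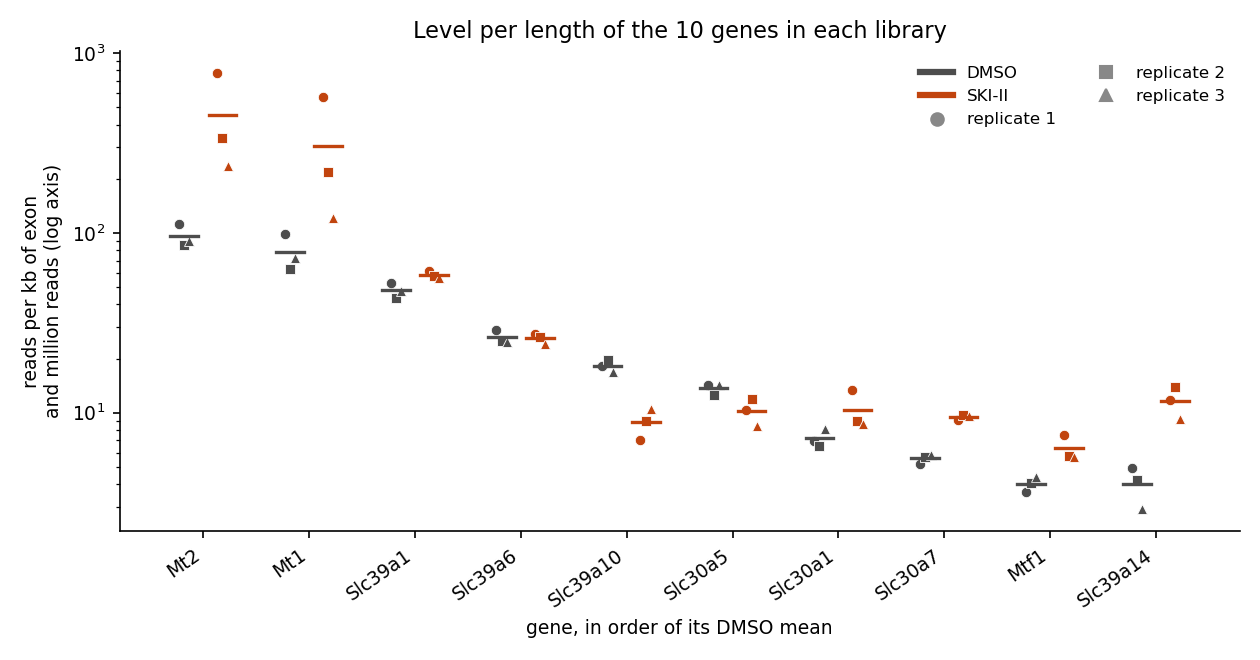
RPKM over annotated exons (log axis) of the 10 genes in each library, in order of the DMSO mean, with a symbol for each replicate number and a bar at the group mean. Mt2 and Mt1 are highest in both groups, Slc39a10 goes from 18.3 to 8.84 and Slc39a14 from 4.03 to 11.6.

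Among 9 genes written down as targets of MTF-1, 4 were higher, 3 were lower and 2 were not called, where 18.4% of all tested genes were higher and 19.7% lower. The median log2 fold change of the 9 was 0.49, against 0.0038 over all tested genes. The list joins genes that MTF-1 activates with Slc39a10, which it represses, so its counts and median mix both directions. The members Mt1, Mt2, Slc30a1 and Slc39a10 are part of this list and moved as given above. Ndrg1, a gene of metal and hypoxia responses, rose from 4364 ± 1497 to 15319 ± 3690 normalized counts (log2 fold change 1.81, adjusted p = 0.00055, edgeR). Selenoh, which encodes a nuclear selenoprotein, fell from 854 ± 103 to 173 ± 63.9 (log2 fold change -2.29, adjusted p = 9.75e-05, edgeR), and Csrp1, which encodes a LIM-domain protein, fell from 1154 ± 157 to 683 ± 11.1 (log2 fold change -0.76, adjusted p = 0.00174, edgeR). Selenow and Gclc, named after their values were seen, were not called.

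Metallothioneins bind copper as well as zinc, and genes of copper handling were listed beside them. Of 11 listed genes, 10 were tested and 4 were higher, where 18.4% of all tested genes were, and the median log2 fold change was 0.17. None was lower in edgeR, DESeq2 or limma-voom, nor at an unadjusted p below 0.05 in edgeR, where 19.7% of all tested genes were called lower. Mt1 and Mt2 are among the 4. Atp7a, which encodes a copper-exporting ATPase, rose from 577 ± 45.0 to 802 ± 79.5 normalized counts (log2 fold change 0.48, adjusted p = 0.0183, edgeR), and Commd1, whose protein takes part in copper export and in NF-κB turnover, rose from 512 ± 101 to 871 ± 217 (log2 fold change 0.77, adjusted p = 0.0142, edgeR). Both calls were lost without DMSO replicate 2 (Atp7a up to an adjusted p of 0.0655 and Commd1 of 0.0625 over the alternatives), and that of Atp7a also without DMSO replicate 3 or SKI-II replicate 1. Commd1 overlaps other annotated genes. Atp7b had 3.96 to 8.84 normalized counts in the DMSO libraries, against 47.0, 7.63 and 9.78 in SKI-II and was not tested.

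Among the genes of zinc buffering and sensing, 5 were tested and Mtf1 alone was called, which is near the 18.4% of all tested genes that were higher. The median log2 fold change of the 5 was 0.08. S100a8 and S100a6, whose proteins bind calcium and zinc, and Tmc6 and Tmc8, whose proteins are known to bind ZnT1, were not called and are named after their values were seen. S100a9 and Tmem163 had at most 1.98 and 8.74 normalized counts in a library, and Gpr39, which encodes a zinc-sensing receptor, had none. The symbol Zng1 was not matched to the gene names used here and was not analysed.

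Outside these lists, the genes whose log2 CPM followed the mean of Mt1 and Mt2 most closely over the 6 libraries were Creld2, Atp6v0a1 and Hsp90b1, with Pearson's r of 0.996, 0.996 and 0.995. Creld2 and Hsp90b1 encode proteins of folding in the endoplasmic reticulum, and Atp6v0a1 a subunit of the vacuolar proton pump. Their log2 fold changes were 1.47, 0.72 and 0.64 (adjusted p = 0.00223, 0.0107 and 0.0246, edgeR). The call of Atp6v0a1 was lost without DMSO replicate 2, and that of Hsp90b1 without the same library and without replicate 1 or 2 of SKI-II, with an adjusted p of up to 0.0517 and 0.117 over the alternatives. Of 9539 genes compared, 634 reached an r of 0.9, and Mt1 and Mt2 had an r of 0.977 with each other. The points share the difference between the groups and the scaling of the libraries, so these values describe likeness only.

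Among the 10 genes, SKI-II replicate 1 had the highest value of its group for 6 and the lowest for 2, and SKI-II replicate 3 had the highest for 1 and the lowest for 8. In DMSO, replicate 1 was the highest for 5 and the lowest for 2. DMSO replicate 2 was the highest for 1 and the lowest for 5, and DMSO replicate 3 the highest for 4 and the lowest for 3.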

How the data were processed

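Poly(A) RNA libraries of RAW264.7 cells, 3 with DMSO and 3 with SKI-II, were analysed, grouped by their treatment labels. The authors deposited raw counts of reads per Ensembl gene, without normalization. Per the submitters' processing notes the tools were Trimmomatic 0.36, STAR 2.5.2b, featureCounts of Subread 1.5.2 and DESeq2. The genome build is not given in the sources used here, nor are the annotation release and the strand setting of the counting.

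Names and positions came from GENCODE M21 (GRCm38), which named 49056 of 49315 identifiers. Counts of all 6 libraries were fitted in R 4.3.3 with edgeR 4.0.16 and its quasi-likelihood test, with TMM scaling, filterByExpr at its defaults (minimum count 10, minimum total 15) and Benjamini-Hochberg adjustment over 12274 genes, which took up 99.9% of each library's counts. An adjusted p under 0.05 counted as a call. For normalized counts, each count was scaled from the TMM-adjusted size of its library to the mean adjusted size, 16042438. The common biological coefficient of variation was 17.5%. Within a group, all pairs of libraries differed by more than sampling noise (chi-square per degree of freedom 15.4 to 58.1 over genes with at least 20 counts).

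Alternatives were DESeq2 1.42.0, limma-voom (limma 3.58.1), RLE scaling, library size alone, no filter, a minimum of 10 counts in all 6 libraries, leaving out 1 library at a time and the replicate number as a block. Levels per length used the union of annotated exons or of annotated coding sequence. Promoter windows came from RefSeq.

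The members and the gene lists were chosen with earlier results of these data known. Named are all members, every other listed gene that was called or not tested, and the 3 genes outside the lists most correlated with Mt1 and Mt2 among genes that averaged 100 or more normalized counts. Listed genes that were not called are named only where a count of 5 or fewer would leave them out.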

Additional observations from a re-analysis of the deposited data

How the results depend on the processing

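Of the 10 members, the 8 other than Slc30a1 and Slc30a5 kept their side of the threshold under all 13 alternatives, and no called member changed its direction. The number of members higher was 5 with limma-voom and 6 under the other scalings, filters and tests, with 5 to 6 when a library was left out. The number lower was 1 with library size alone and 1 with at least 10 counts in every library, where Slc30a5 lost its call, and 1 to 2 when a library was left out. Members past a log2 fold change of 1 or -1 were 3 to 4 when a library was left out. In the copper handling list, 2 to 4 genes were higher with a library left out, with the lowest number without DMSO replicate 2. Over all tested genes, 1507 to 2227 were higher and 1766 to 2387 lower with a library left out. With no gene filter more genes entered the fit. The standard error then moved from 0.449 to 0.155 for Mt1, from 0.358 to 0.155 for Mt2 and from 0.113 to 0.157 for Slc30a7. In that setting 2619 genes were higher and 2549 lower. Higher were 12 instead of 11 of the zinc lists, 5 instead of 4 of the copper handling list and 5 instead of 4 of the MTF-1 targets. The lowest adjusted p of Slc30a1, 0.0102 by edgeR, also came from that setting. With the replicate number as a block, 6 members were higher and 2 lower, 13 genes of the zinc lists were higher instead of 11, and 2765 genes in all were higher and 2819 lower. The numbers were not shown to pair the libraries, since the deviations of same-numbered libraries correlated by 0.275, -0.04 and 0.538, and DMSO replicate 1 correlated best with SKI-II replicate 2 (0.406). No scaling moved the median log2 fold change of all genes by more than 0.1. With 3 libraries a group, the precision of Mt1 and Mt2 was limited by the spread between SKI-II libraries.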
